A study of Mus musculus with 15 samples.

Results

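Ribosome biogenesis and nucleolar genes were followed across mouse tumors driven by c-Myc and by MYCN. The set held 50 genes, taken by name from a list of nucleolar and ribosome assembly factors, out of 23329 genes in the count tables. Their measured values were not used, though earlier results of these data were known. All 50 passed the filter on low counts (more than 1 CPM, the usual read count scaled to library size, in 3 tumors or more), which 14880 genes passed in all.

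Ribosomes are assembled in the nucleolus, where RNA polymerase I transcribes the precursor ribosomal RNA. Small nucleolar ribonucleoproteins (snoRNPs) modify this precursor, and a large number of assembly factors, many of them helicases, GTPases and WD-repeat proteins, fold and cleave it into the small and the large subunit. Myc proteins are known to bind the E-box sequence CACGTG with their partner Max, and genes of ribosome assembly are among their classical targets.

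RNA of 15 tumors, each from a different mouse, was sequenced after poly(A) selection, and the reads per gene are relative to the library, so that fewer cells of a type and less RNA per cell cannot be told apart. The 4 EμMyc and 3 EμMyc/Casp2-/- tumors were cervical lymph node lymphomas from C57BL/6 mice with a c-Myc transgene under the immunoglobulin heavy chain enhancer, wild type for Casp2 or lacking it. The 4 Th-MYCN and 4 Th-MYCN/Casp2-/- tumors were paraspinal thoracic neuroblastomas from mice with a human MYCN transgene under the tyrosine hydroxylase promoter, on a mixed Sv129/C57BL6 background and picked for few blood vessels. Age at tumor onset was 13 to 19 weeks for the EμMyc mice and 8 to 12 weeks for those also lacking Casp2. Neuroblastoma onset was at 10 to 21 weeks with Casp2 present and at 15 to 24 weeks with it absent. Oncogene, tissue, strain background and tumor type changed together between lymphomas and neuroblastomas and cannot be told apart.

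Reads counted on the second strand of genes, which were the ones used here, numbered 4940464 to 17638029 per library. Counted on either strand, they numbered 9845761 to 35192127. For the reads used, 3 reads, taken as the floor, corresponded to 0.173 to 0.586 CPM (scaled by TMM, which allows for differences in library composition). The summed level of 8 B lineage markers was 2390.1 to 4423 CPM in lymphomas and 18.9 to 77.6 CPM in neuroblastomas, and that of 8 sympathetic neuroblast markers was 3.13 to 83.3 CPM in lymphomas and 2622 to 4120 CPM in neuroblastomas. Among the neuroblast markers, Insm1 reached 80.5 CPM in lymphomas and every other marker at most 4.37 CPM. Myc, the c-Myc gene, was at 498 to 1914 CPM in lymphomas and 4.69 to 15.6 CPM in neuroblastomas, and reads on mouse Mycn were at 0.0855 to 2.15 CPM and 230 to 430.1 CPM. Casp2, the deleted gene, was at 125 to 203 CPM in EμMyc, 51.9 to 76.1 CPM in EμMyc/Casp2-/-, 76.0 to 125 CPM in Th-MYCN and 39.6 to 80.2 CPM in Th-MYCN/Casp2-/- tumors. Its log2 fold change without Casp2 was -1.35 ± 0.27 in lymphoma (edgeR likelihood ratio test, adjusted p = 0.00040) and -0.79 ± 0.25 in neuroblastoma (adjusted p = 0.101), where the groups overlapped in 1 tumor each. Where on the gene the remaining reads lay was not tested.

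Of the 50 genes, 44 had a promoter in RefSeq's table for GRCm38.p6, and 10 of these, 22.7%, held the E-box CACGTG between 250 bases before and 50 bases after the transcription start, against 8.09% of all 27025 genes in that table. The 8.09% covers genes whether expressed in these tumors or not, and was not matched on base composition. Npm1, Fbl, Rrp12, Bop1, Rrs1 and Gnl3l had no entry. The motif reads the same on both strands and was searched as these 6 letters with no mismatch. Windows of 250 bases before the start are shown for the 3 genes whose E-box lay upstream, because 2 of them stood far higher in lymphoma while Rrn3 holds the motif 2 times and did not. Each run is written 5′ to 3′ on the gene's strand, with the E-box in capitals and its coordinates on GRCm38.p6.

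Nop2 chr6:125131633-125131882 (+): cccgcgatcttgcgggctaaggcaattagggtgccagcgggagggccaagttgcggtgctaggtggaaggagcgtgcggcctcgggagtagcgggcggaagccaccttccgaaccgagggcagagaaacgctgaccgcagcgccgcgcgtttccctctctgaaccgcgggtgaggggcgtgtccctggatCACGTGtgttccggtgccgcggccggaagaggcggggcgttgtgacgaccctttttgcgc
Imp4 chr1:34439579-34439828 (+): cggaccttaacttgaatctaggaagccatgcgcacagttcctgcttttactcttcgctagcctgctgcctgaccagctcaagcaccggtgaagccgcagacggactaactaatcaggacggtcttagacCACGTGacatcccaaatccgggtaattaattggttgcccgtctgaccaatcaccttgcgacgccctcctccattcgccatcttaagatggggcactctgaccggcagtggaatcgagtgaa
Rrn3 chr16:13780449-13780698 (+): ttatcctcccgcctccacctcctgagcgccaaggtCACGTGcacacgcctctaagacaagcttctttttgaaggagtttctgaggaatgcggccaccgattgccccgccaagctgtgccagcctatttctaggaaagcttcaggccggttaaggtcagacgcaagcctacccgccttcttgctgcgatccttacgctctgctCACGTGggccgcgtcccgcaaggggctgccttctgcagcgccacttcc

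The first base of the E-box lay at -60 in Nop2, -121 in Imp4, and -215 and -48 in Rrn3, counted from -1 at the last base before the start. In the other 7 genes the motif lay within 50 bases after the start, at +3 in Pes1, +18 in Wdr43, +24 in Nle1, +25 in Tsr1, +29 in Ltv1, +35 in Grwd1 and +38 in Utp20. Short windows around it are shown for these genes because they place the same letters next to the start.

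Pes1 chr11:3963965-3963994 (+): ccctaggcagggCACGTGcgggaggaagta
Wdr43 chr17:71616220-71616249 (+): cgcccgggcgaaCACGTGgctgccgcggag
Nle1 chr11:82908355-82908384 (-): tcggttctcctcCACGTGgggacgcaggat
Tsr1 chr11:74898092-74898121 (+): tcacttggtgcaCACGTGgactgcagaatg
Ltv1 chr10:13193092-13193121 (-): gccctgtggaccCACGTGtggagctgccgg
Grwd1 chr7:45830740-45830767 (-): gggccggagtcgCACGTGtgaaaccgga
Utp20 chr10:88826765-88826789 (-): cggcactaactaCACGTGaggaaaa

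The genes with and without the motif differed little in how far they stood from neuroblastoma. The median log2 fold change of EμMyc over Th-MYCN was 1.22 over the 10 genes with the motif and 1.22 over the 34 without it. In tumors lacking Casp2 the medians were 1.33 and 1.36. These medians describe the letters in windows around the starts and say nothing of binding.

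The first question was whether the set differed between the c-Myc lymphomas and the MYCN neuroblastomas with Casp2 present. In this comparison 47 of the 50 genes were higher in EμMyc tumors, 1 was lower and 2 did not pass the test (edgeR likelihood ratio test, adjusted p under 0.05). Of all genes tested, 28.3% were called higher and 33.9% lower. The median log2 fold change over the 50 genes was 1.25, a 2.38-fold difference, while the median over all genes was -0.04. A difference over 2-fold was called for 34 genes higher, beside 18.9% of all genes, and for 1 gene lower, beside 4244 of all 14880 genes.

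The tumors lacking Casp2 share no tumor with those above and gave the comparison a second time, though both rest on 1 estimate of the spread. Again 47 genes were higher in lymphoma, 1 was lower and 2 were not called, where 27.7% of all genes were called higher and 32.5% lower. The median log2 fold change was 1.37, or 2.59-fold, against -0.05 over all genes. Over 2-fold, 38 genes were called higher, beside 20.5% of all genes, and 1 lower, beside 4100 of all 14880 genes. EdgeR's quasi-likelihood test and DESeq2 each gave the same 47 higher and 1 lower in both comparisons.

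In both comparisons 46 genes were called higher, beside 23.0% of all genes, and 1 lower, beside 29.2%. Every one of the 7 lymphomas exceeded every one of the 8 neuroblastomas in 44 genes, where 16.6% of all genes did so. The groups overlapped in Dkc1, Rrn3, Rrp12, Utp15 and Nop16, and Gnl3l was below every neuroblastoma in every lymphoma.

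**Figure D1:**
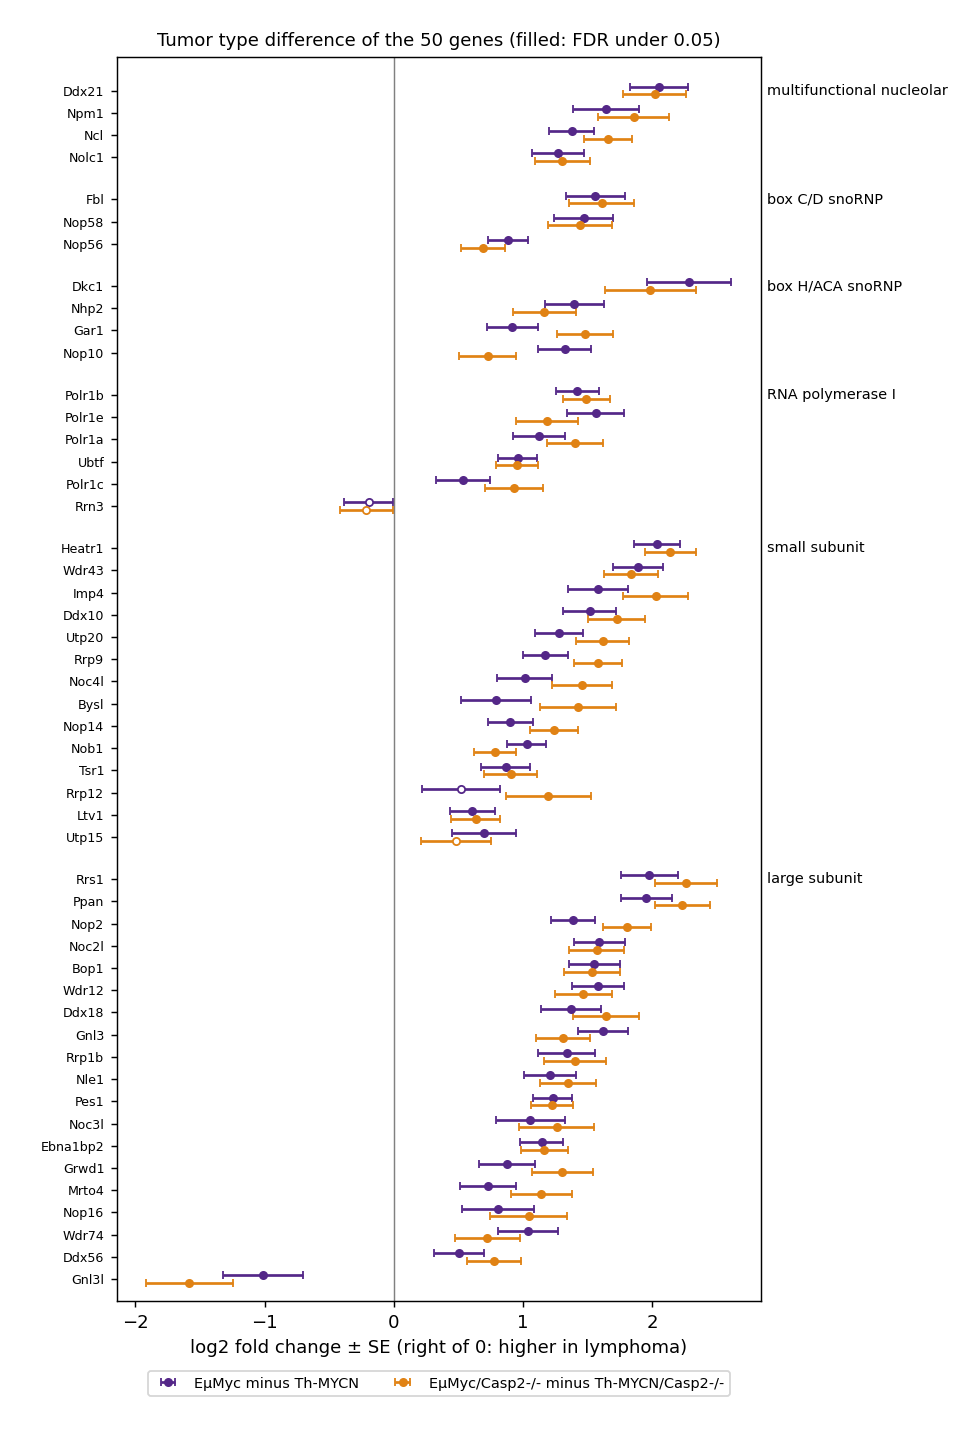
Log2 fold change of lymphoma over neuroblastoma ± SE (horizontal axis) for each of the 50 genes (vertical axis), grouped by role, with Casp2 present (purple) and absent (orange). Filled points passed an adjusted p of 0.05. Points lie right of 0 for 48 genes in each comparison, Rrn3 sits left of 0 with open points, and Gnl3l is the 1 gene left of 0 with filled points.

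Summed over the 50 genes, the level was 18407.5, 16987, 17839 and 15349 CPM in the EμMyc tumors (EuMyc614, EuMyc743b, EuMyc829 and EuMyc835, in this order here and in the values that follow). It was 15728, 15968 and 16401 CPM in EμMyc/Casp2-/- tumors (EuMycC2ko215, EuMycC2ko239 and EuMycC2ko245). Among the neuroblastomas it was 7208, 6996, 6374 and 6911 CPM in Th-MYCN (MYCN175, MYCN235, MYCN332 and MYCN391), and 6399, 5994, 6296 and 5633 CPM in Th-MYCN/Casp2-/- (MYCNC2ko118, MYCNC2ko144, MYCNC2ko176 and MYCNC2ko180). Of the reads on genes, 1.57% to 1.78% in lymphomas and 0.542% to 0.726% in neuroblastomas fell on these genes, and the tumor types did not overlap. The mean sum was 2.57-fold higher in lymphomas. The summed level of 8 proliferation markers was 1.42-fold higher in lymphomas (2669 to 4498 CPM) than in neuroblastomas (2253 to 3161 CPM), with overlap, and its part in the difference was not tested.

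By role, the ratio of mean summed levels ran from 1.84 for RNA polymerase I factors to 3.02 for the multifunctional nucleolar proteins. It was 2.32 for box C/D snoRNP proteins, 2.73 for box H/ACA snoRNP proteins, 2.46 for small subunit factors and 2.42 for large subunit factors. RNA polymerase I factors made up 7.18% to 8.31% of the summed level in lymphomas and 10.2% to 12.4% in neuroblastomas, so the ranges of this share did not overlap. Abundant single genes weigh most in such sums. Ubtf alone averaged 565 of 1289 CPM in lymphomas and 292 of 701 CPM in neuroblastomas, and Rrn3 131 and 149.8 CPM. In the multifunctional role Ncl averaged 3567 of 6394 CPM and 1249.5 of 2116 CPM. The ratios therefore do not describe each gene of a role.

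**Figure D2:**
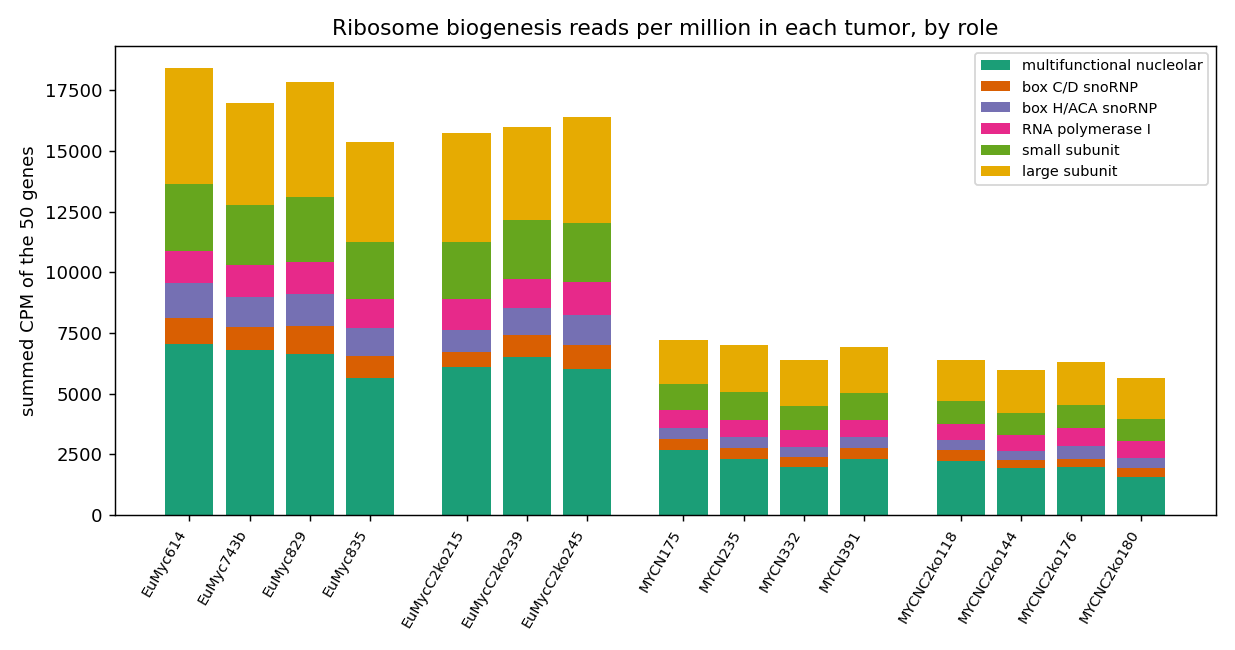
Summed CPM of the 50 genes (vertical axis) in each of the 15 tumors (horizontal axis, grouped by genotype), stacked by role. The lymphomas reach 15349 to 18407.5 CPM and the neuroblastomas 5633 to 7208 CPM.

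Among the multifunctional nucleolar proteins, all 4 genes were called higher in lymphoma in both comparisons. Ncl (nucleolin; ENSMUSG00000026234, chr1:86344719-86359400, minus strand) encodes an abundant nucleolar protein that binds precursor ribosomal RNA. It stood at 3528, 3918, 3834 and 3059.9 CPM in EμMyc, 3522, 3619 and 3490.1 in EμMyc/Casp2-/-, 1648, 1381, 1171 and 1312 in Th-MYCN and 1354, 1147, 1051 and 933 in Th-MYCN/Casp2-/- tumors. The lowest lymphoma lay far above the highest neuroblastoma. The log2 fold change was 1.38 ± 0.17 (SE; adjusted p = 5.6e-14) with Casp2 and 1.66 ± 0.19 (adjusted p = 1.4e-17) without it.

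Npm1 (nucleophosmin; ENSMUSG00000057113, chr11:33152287-33163206, minus strand), a nucleolar chaperone, was at 1779, 1498, 1309 and 1187 CPM in EμMyc, 1388, 1473 and 1320.2 in EμMyc/Casp2-/-, 597, 413, 352 and 484 in Th-MYCN and 411, 315, 573 and 239 in Th-MYCN/Casp2-/-. The tumor types were again apart, and MYCNC2ko180 held the lowest value. Log2 fold changes of 1.64 ± 0.25 and 1.86 ± 0.27 were called. Npm1 has processed pseudogene copies, and reads that fit several places (15.0% to 17.7% of neuroblastoma and 19.4% to 24.2% of lymphoma reads) were not counted, so its level is uncertain.

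Ddx21, an RNA helicase that acts with RNA polymerase I, was at 886, 698, 1000.3 and 732 CPM in EμMyc and 491, 764 and 769 in EμMyc/Casp2-/- tumors. In neuroblastomas it was at 172, 228, 178 and 221 and, without Casp2, at 204, 202, 132 and 128 CPM. EuMycC2ko215 was the low lymphoma, still above each neuroblastoma. The folds were 4.15 and 4.05, the largest of this role. Nolc1, a chaperone of snoRNPs, had log2 fold changes of 1.27 ± 0.20 and 1.30 ± 0.21.

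The box C/D snoRNP proteins, which methylate ribosomal RNA, were called higher in lymphoma for all 3 genes in both comparisons. Fbl (fibrillarin, the methyltransferase; ENSMUSG00000046865, chr7:28169710-28179269, plus strand) was at 55.5, 56.4, 53.1 and 49.7 CPM in EμMyc, 65.8, 46.6 and 51.5 in EμMyc/Casp2-/-, 14.5, 19.3, 19.1 and 19.8 in Th-MYCN and 18.0, 15.8, 12.8 and 24.6 in Th-MYCN/Casp2-/-. Its log2 fold changes were 1.56 ± 0.23 and 1.61 ± 0.25. The column of reads used held 24.7% of the reads Fbl had on both strands, against a median of 48.8% over the 50 genes, and the cause was not tested. Counts from the opposite strand gave log2 fold changes of 1.48 and 1.61.

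Nop56, a core protein of the same particle, was at 394, 331, 369 and 347 CPM in EμMyc and 262, 309.8 and 327 in EμMyc/Casp2-/- tumors, and at 184, 203, 196 and 198 CPM in Th-MYCN and 218, 183, 150.4 and 192 CPM in Th-MYCN/Casp2-/- tumors. The groups were apart, by a smaller margin than for Fbl. Its log2 fold changes were 0.89 ± 0.16 and 0.69 ± 0.17. Its partner Nop58 had 1.47 ± 0.23 and 1.44 ± 0.25.

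Box H/ACA snoRNP proteins, which convert uridine to pseudouridine, were called higher for all 4 genes in both comparisons. Dkc1 (dyskerin, the pseudouridine synthase; ENSMUSG00000031403, chrX:75095854-75109777, plus strand) was at 457, 358, 547 and 397 CPM in EμMyc, 108, 409.8 and 409 in EμMyc/Casp2-/-, 76.3, 104, 70.3 and 109.8 in Th-MYCN and 81.0, 81.8, 87.8 and 61.4 in Th-MYCN/Casp2-/-. EuMycC2ko215 fell among the neuroblastomas, below MYCN391, while the other 6 lymphomas were far above them. The log2 fold change with Casp2, 2.29 ± 0.32 (4.88-fold; adjusted p = 1.0e-10), was the largest of the 50 genes. Without Casp2 it was 1.99 ± 0.35, and 2.45 when EuMycC2ko215 was left out.

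Nhp2 and Gar1 had log2 fold changes of 1.40 ± 0.23 and 0.92 ± 0.20 with Casp2, and 1.17 ± 0.25 and 1.48 ± 0.22 without it. For Nop10, a small protein of the particle, they were 1.32 ± 0.20 and 0.73 ± 0.22.

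**Figure D3:**
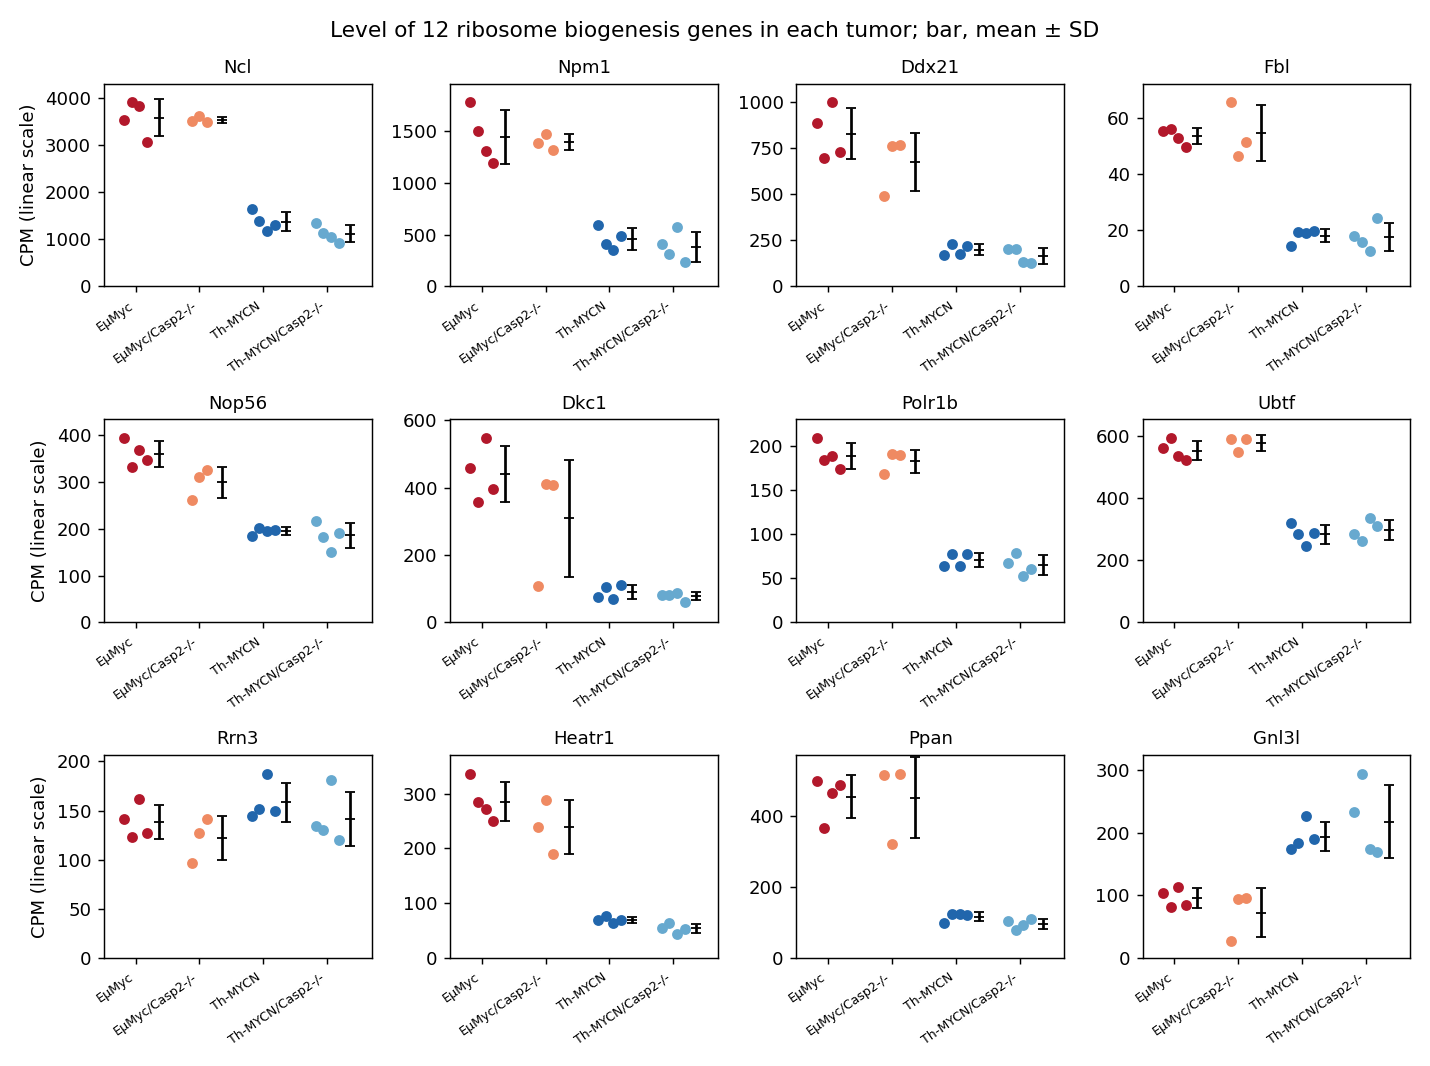
CPM (vertical axes, linear, from 0) of 12 of the genes in each tumor (points) of the 4 groups (horizontal axes), with the group mean ± SD as a bar. Of these 12, lymphomas are above neuroblastomas in 9 without overlap, Dkc1 has 1 lymphoma among the neuroblastomas, Rrn3 overlaps, and Gnl3l is lower in every lymphoma.

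RNA polymerase I genes split: 5 of 6 were called higher in both comparisons and Rrn3 in neither. Polr1a, the largest subunit (ENSMUSG00000049553, chr6:71909053-71984935, plus strand), was at 217, 235, 198 and 169 CPM in EμMyc, 190.3, 178 and 233 in EμMyc/Casp2-/-, 121, 84.1, 96.2 and 74.0 in Th-MYCN and 71.8, 75.4, 62.6 and 92.9 in Th-MYCN/Casp2-/-. MYCN175 was the highest neuroblastoma, below each lymphoma. Log2 fold changes were 1.12 ± 0.20 and 1.40 ± 0.22.

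Polr1b, the second largest subunit (ENSMUSG00000027395, chr2:129100995-129126594, plus strand), was at 209, 184, 188 and 174 CPM in EμMyc, 168, 191 and 190.1 in EμMyc/Casp2-/-, 63.5, 77.7, 63.8 and 77.2 in Th-MYCN and 67.6, 79.1, 52.6 and 61.1 in Th-MYCN/Casp2-/-. The groups were well apart, with log2 fold changes of 1.42 ± 0.17 and 1.49 ± 0.18. Polr1e had 1.57 ± 0.22 and 1.19 ± 0.24. For Polr1c, a subunit shared with RNA polymerase III, they were 0.54 ± 0.21 (adjusted p = 0.0172) and 0.93 ± 0.22. The call with Casp2 was lost without EuMyc829, MYCN175 or MYCN332, when the value was 0.44, 0.50 and 0.50.

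Ubtf, the architectural factor of ribosomal DNA (ENSMUSG00000020923, chr11:102304560-102319742, minus strand), was at 564, 595, 535 and 523 CPM in EμMyc, 593, 550.2 and 593 in EμMyc/Casp2-/-, 319, 285, 245 and 289.6 in Th-MYCN and 286, 261, 336 and 311 in Th-MYCN/Casp2-/-. Its spread within lymphomas was the narrowest of the 50 genes, with a highest tumor 1.14 times the lowest, and its log2 fold changes were 0.96 ± 0.15 and 0.95 ± 0.16.

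Rrn3 (TIF-IA; ENSMUSG00000022682, chr16:13780708-13814839, plus strand), which brings RNA polymerase I to the promoter and was singled out after its values were seen, was at 142, 123, 162 and 127 CPM in EμMyc, 97.1, 127 and 141 in EμMyc/Casp2-/-, 144, 151, 187 and 150.0 in Th-MYCN and 134, 129.7, 181 and 119.6 in Th-MYCN/Casp2-/-. Lymphomas and neuroblastomas overlapped both with and without Casp2. The log2 fold change was -0.19 ± 0.19 (95% interval -0.57 to 0.18, adjusted p = 0.378) with Casp2 and -0.21 ± 0.21 (-0.62 to 0.19, adjusted p = 0.381) without it. Both intervals lay below the estimate for Ddx56 with Casp2, 0.51 ± 0.19, the smallest called higher there. That estimate has its own spread, and Rrn3 was not tested against it. The 2 E-boxes printed above are the only pair in 1 promoter among the 44.

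Small subunit factors were called higher for 13 of 14 genes in each comparison. Heatr1, an early factor of the small subunit processome (ENSMUSG00000050244, chr13:12395027-12440289, plus strand), was at 336, 284, 272 and 251 CPM in EμMyc and 239, 288 and 189.6 in EμMyc/Casp2-/- tumors. In neuroblastomas it was at 68.7, 76.5, 63.7 and 69.0 CPM and, without Casp2, at 54.8, 63.4, 44.5 and 53.7 CPM. The lowest lymphoma, EuMycC2ko245, held more than the highest neuroblastoma by a wide margin. The folds were 4.11 (adjusted p = 1.8e-26) and 4.41 (adjusted p = 3.7e-26).

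Wdr43, another processome protein, had log2 fold changes of 1.89 ± 0.19 and 1.84 ± 0.21. Apart from Imp4, the remaining genes of this role that were called in both comparisons ran from Ltv1 (0.61 ± 0.17 and 0.64 ± 0.19), which acts in late small subunit maturation, to the helicase gene Ddx10 (1.52 ± 0.20 and 1.73 ± 0.22). Imp4, which binds the U3 snoRNP and whose promoter is printed above, was at 136, 134, 177 and 124 CPM in EμMyc, 160.2, 119.7 and 163 in EμMyc/Casp2-/-, 69.1, 46.6, 37.7 and 37.2 in Th-MYCN and 35.4, 39.8, 27.8 and 41.7 in Th-MYCN/Casp2-/-. The types did not overlap, and the log2 fold changes were 1.58 ± 0.23 and 2.03 ± 0.25.

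The 2 genes of this role that missed 1 comparison each were singled out after their values were seen. Rrp12 was at 95.8, 105, 42.8 and 88.1 CPM in EμMyc and 153, 122 and 53.6 in EμMyc/Casp2-/- tumors, and at 52.9, 66.5, 54.9 and 56.6 CPM in Th-MYCN and 46.9, 53.1, 42.3 and 48.1 CPM in Th-MYCN/Casp2-/- tumors. EuMyc829 and EuMycC2ko245 lay at neuroblastoma levels. Its log2 fold change was 0.52 ± 0.30 (adjusted p = 0.125) with Casp2 and 1.20 ± 0.33 (adjusted p = 5.9e-04) without it. For Utp15 the values were 0.70 ± 0.25 (adjusted p = 0.0095) and 0.48 ± 0.27 (adjusted p = 0.109). The difference between the 2 comparisons, which is the interaction, was 0.68 ± 0.45 (adjusted p = 0.741) for Rrp12 and -0.22 ± 0.37 (adjusted p = 0.966) for Utp15.

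Libraries did not keep strand (the column used held 48.8% to 49.3% of strand-assigned reads), so reads from a gene overlapping on the opposite strand cannot be told apart. Tsr1 shares 32.3% of its exon bases with Srr, Noc2l 20.9% with Samd11 and Bysl 9.37% with Ccnd3, the largest overlaps in the set. With reads that fell on both genes left out, the log2 fold changes of Tsr1 were 0.96 and 1.06 (from 0.87 and 0.91), those of Noc2l 1.59 and 1.57 (from 1.59 and 1.57), and those of Bysl 0.55 and 0.74 (from 0.79 and 1.43). Bysl without Casp2 also moved to 0.94 when EuMycC2ko215 was left out. It remained called in each of these.

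Large subunit factors were called higher for 18 of 19 genes in both comparisons. Ppan, which acts in early large subunit assembly (ENSMUSG00000004100, chr9:20888175-20892178, plus strand), was at 498, 365, 466 and 488 CPM in EμMyc, 517, 321 and 519 in EμMyc/Casp2-/-, 99.4, 124, 124 and 121 in Th-MYCN and 104, 78.8, 92.5 and 109 in Th-MYCN/Casp2-/-. Each lymphoma had more than the highest neuroblastoma. Its folds were 3.88 and 4.71. Rrs1, part of the 5S RNP docking step, had 3.94 and 4.80.

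Bop1, of the complex with Pes1 and Wdr12 that matures the large subunit RNA (ENSMUSG00000022557, chr15:76452989-76477277, minus strand), was at 246, 375, 235 and 237 CPM in EμMyc, 279, 211 and 271 in EμMyc/Casp2-/-, 88.6, 97.8, 101 and 85.7 in Th-MYCN and 90.7, 67.9, 90.2 and 101 in Th-MYCN/Casp2-/-. EuMyc743b stood apart as the highest, and the tumor types did not overlap. The 3 genes of this complex had close log2 fold changes with Casp2, 1.55 ± 0.20 for Bop1, 1.23 ± 0.15 for Pes1 and 1.58 ± 0.20 for Wdr12. Without Casp2 these were 1.53 ± 0.21, 1.22 ± 0.16 and 1.47 ± 0.22.

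Nop2, a methyltransferase of the large subunit RNA whose promoter is printed above, had log2 fold changes of 1.39 ± 0.17 and 1.81 ± 0.18. The other 12 genes of this role called higher ran from Ddx56 (0.51 ± 0.19) to Gnl3 (1.62 ± 0.19) with Casp2, and from Wdr74 (0.73 ± 0.25) to Ddx18 (1.64 ± 0.25) without it. These log2 fold changes were lower than those of Ppan and Rrs1 in both comparisons. Ddx56 with Casp2 lost its call without EuMyc614 or MYCN332, at 0.47 and 0.42. Wdr74 without Casp2 lost its call when EuMycC2ko215 and MYCNC2ko180 were left out together, an alternative chosen after seeing the data, at 0.64.

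Gnl3l, a nucleolar GTPase related to nucleostemin (ENSMUSG00000025266, chrX:150983141-151017322, minus strand), was the 1 gene that went the other way. It was at 105, 81.2, 113 and 85.1 CPM in EμMyc, 27.7, 94.6 and 95.2 in EμMyc/Casp2-/-, 174, 184, 227 and 190.0 in Th-MYCN and 233, 294, 175 and 169 in Th-MYCN/Casp2-/-. Every lymphoma lay below every neuroblastoma, and EuMycC2ko215 was lowest. Its log2 fold changes were -1.01 ± 0.31 (adjusted p = 0.0024) and -1.58 ± 0.33 (adjusted p = 2.0e-05), the latter -1.13 without EuMycC2ko215. Its paralog Gnl3 (nucleostemin) was higher in lymphoma, at 612, 505, 499 and 535 CPM in EμMyc and 339, 433 and 469 in EμMyc/Casp2-/-, against 144, 184, 167 and 205 CPM in Th-MYCN and 193, 172, 186 and 117 CPM in Th-MYCN/Casp2-/-. Its log2 fold changes were 1.62 ± 0.19 and 1.31 ± 0.21.

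A further 93 genes of the same pathway were listed by role, of which 92 were in the tables and tested. With Casp2, 76 of these were called higher in lymphoma (28.3% of all genes were) and none lower (33.9% of all genes), with a median log2 fold change of 0.91. Without Casp2, 74 were called higher (27.7% of all genes) and none lower (32.5%), with a median of 1.11. In both comparisons 70 were called higher, beside 23.0% of all genes. The quasi-likelihood test and DESeq2 also called none of them lower. By the mean of both log2 fold changes, the 3 highest were Lyar (2.10 and 2.81), a nucleolar zinc finger protein, Npm3 (2.34 and 2.24), a relative of Npm1, and Naf1 (2.02 and 1.92), which assembles box H/ACA snoRNPs. The 3 lowest, none of them called, were the dimethyltransferase Dimt1 (-0.05 and -0.23), the helicase Ddx49 (0.14 and -0.04) and Pelp1 (-0.02 and 0.14).

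Within a tumor type, correlations between pairs of these genes were weak at the median and spread widely. Across pairs of the 50 genes, the median correlation of log2 CPM was 0.13 over the 7 lymphomas (quartiles -0.29 and 0.49). It was 0.18 over the 8 neuroblastomas (quartiles -0.13 and 0.46), against 0.88 over all 15 tumors, where the tumor type sets it. These are descriptions over libraries that share depth and composition. They include EuMycC2ko215 and MYCNC2ko180, which stood apart by base composition (below), and were not computed without them. The highest lymphoma exceeded the lowest by a median of 1.74 times per gene, up to 5.08 times for Dkc1, and over 2 times for 14 genes. Among neuroblastomas the median was 1.59 times, up to 2.50 times for Npm1, and over 2 times for 4 genes.

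A pair of Casp2-/- libraries stood apart by base composition, and results without them are given for part of the comparisons. In EuMycC2ko215, the shallowest library, all 17 genes lowest in transcript GC content (40.4% to 47.0%) were below the mean of the other lymphomas, by a median log2 difference of -0.57, and 16 of the 17 highest in it (54.1% to 59.8%) were above it, by 0.27. MYCNC2ko180 showed 16 of 17 below, by -0.45, and 11 of 17 above, by 0.07, against the other neuroblastomas. The rank correlation of this deviation with GC content over the 50 genes was 0.72 and 0.73 in these libraries and -0.45 to 0.21 in the other 13 tumors. Over all genes with a GC value it was 0.33 and 0.49. The largest drops in EuMycC2ko215 were Dkc1 (-1.98) and Gnl3l (-1.77), both on the X chromosome, ahead of Nop58 (-1.05). The cause of these drops was not tested. EuMycC2ko215 also had the highest summed T cell markers of the lymphomas (1392 CPM against 103 to 313), the highest macrophage markers (1575 CPM against 285 to 1082), the lowest Myc (498 CPM against 1238 to 1914) and the lowest proliferation markers. The part of these in its values was not tested.

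**Figure D4:**
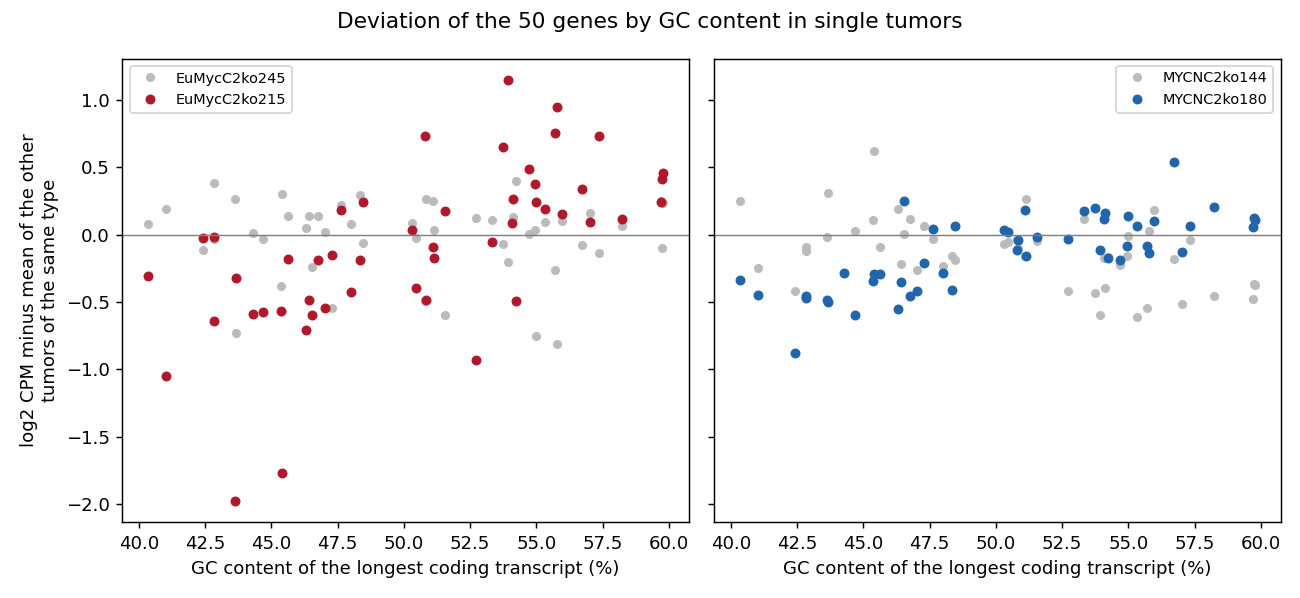
Log2 CPM of each of the 50 genes in 1 tumor minus the mean of the other tumors of its type (vertical axis) against the GC content of its longest coding transcript (horizontal axis), for EuMycC2ko215 (left, red) and MYCNC2ko180 (right, blue), each with another tumor of its group in grey. The colored points rise with GC content in both panels, with rank correlations of 0.72 and 0.73.

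The second question was whether loss of Casp2 changed these genes within a tumor type. In neuroblastoma, none of the 50 genes was called in either direction, beside 0.228% of all genes called higher and 0.665% lower. An unadjusted p under 0.05 was found for 6 genes by the likelihood ratio test, 9 by the quasi-likelihood test and 9 by DESeq2, and neither of the other tests called any after adjustment. Of all 14880 genes, 1157 had such a p by the likelihood ratio test, 1008 by the quasi-likelihood test and 1173 by DESeq2. The 95% interval of every one of the 50 genes lay within 2-fold in either direction, with bounds from -0.94 to 0.77. These intervals take the fitted spread as known and may be too narrow.

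The differences in neuroblastoma leaned to one side without reaching a call. The log2 fold change was below 0 in 42 of the 50 genes, with a median of -0.20 against -0.00244 over all genes, where 7493 of 14880 were below 0. No test was made of this count. By role, the genes below 0 were 4 of 4 multifunctional, 3 of 3 box C/D, 2 of 4 box H/ACA, 4 of 6 RNA polymerase I, 13 of 14 small subunit and 16 of 19 large subunit genes. Over library scalings the count was 41 to 43, and without EuMycC2ko215 and MYCNC2ko180 it was 40, with a median of -0.15. Summed levels were 6374 to 7208 CPM with Casp2 and 5633 to 6399 without it, and only MYCNC2ko118 reached the range of Th-MYCN. Summed markers of endothelial cells were also lower without Casp2 (29.2 to 48.5 CPM against 60.3 to 96.2), as were those of sympathetic neuroblasts (2622 to 3689 CPM against 3823 to 4120), and their part in the differences was not tested. Groups did not overlap for 4 genes, Nop14, Heatr1, Nop2 and Ddx18, each lower without Casp2 (Nop14 and Nop2 named after their values were seen), against 3.68% of all genes lower and 2.94% higher in this way.

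The 3 genes with the smallest p were Gar1, Ddx18 and Noc4l. Gar1, of the box H/ACA particle, was at 75.0, 87.5, 64.5 and 103 CPM in Th-MYCN and 50.2, 51.5, 81.9 and 65.2 in Th-MYCN/Casp2-/- tumors. These groups overlapped, with a log2 fold change of -0.41 ± 0.20 (edgeR, adjusted p = 0.605). The helicase gene Ddx18 was at 37.7, 30.5, 25.0 and 27.3 CPM with Casp2 and 21.1, 22.0, 22.0 and 21.3 CPM without it, and its 4 Casp2-/- tumors lay close together below the others. Its log2 fold change was -0.48 ± 0.24 (adjusted p = 0.605). Noc4l, of small subunit maturation, was at 45.1, 62.4, 55.3 and 63.1 CPM with Casp2 and 31.9, 32.8, 52.7 and 49.7 CPM without it, with overlap, and had a log2 fold change of -0.44 ± 0.21 (adjusted p = 0.607).

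In lymphoma no gene was called either, beside 1.18% of all genes called higher and 0.323% lower without Casp2. The likelihood ratio test, the quasi-likelihood test and DESeq2 each gave 1 gene with an unadjusted p under 0.05, and none after adjustment. Of all 14880 genes, 1471, 1269 and 1467 had such a p by these tests, in this order. The median log2 fold change was -0.05 (-0.03 over all genes), and 0.01 when library totals replaced TMM scaling. Below 0 were 34 of 50 genes, beside 7843 of all 14880 genes, and 24 of the 50 with library totals. Without EuMycC2ko215 the median was -0.09 (-0.02 over all genes), and 35 of the 50 were below 0. The 95% interval lay within 2-fold either way for 47 genes and reached past it for Dkc1 (-1.20 to 0.18), Gnl3l (-1.06 to 0.26) and Rrp12 (-0.24 to 1.04). EuMycC2ko215 was the lowest lymphoma in Dkc1 and Gnl3l and the highest in Rrp12. Groups did not overlap for 3 genes, Nop56, Nop10 and Gnl3, each lower without Casp2, where 1.96% of all genes were lower and 1.75% higher in this way.

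Nop10 had the smallest p in lymphoma. It was at 343, 288, 246 and 219.7 CPM in EμMyc and 164, 213 and 202 CPM in EμMyc/Casp2-/- tumors, the highest of the latter just below the lowest of the former, with a log2 fold change of -0.51 ± 0.22 (edgeR, adjusted p = 0.356). Next came Gnl3 at -0.38 ± 0.21 (adjusted p = 0.575) and Rrp1b, a nucleolar protein, at -0.39 ± 0.24 (adjusted p = 0.662). EuMycC2ko215 was the lowest tumor in all 3 genes.

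**Figure D5:**
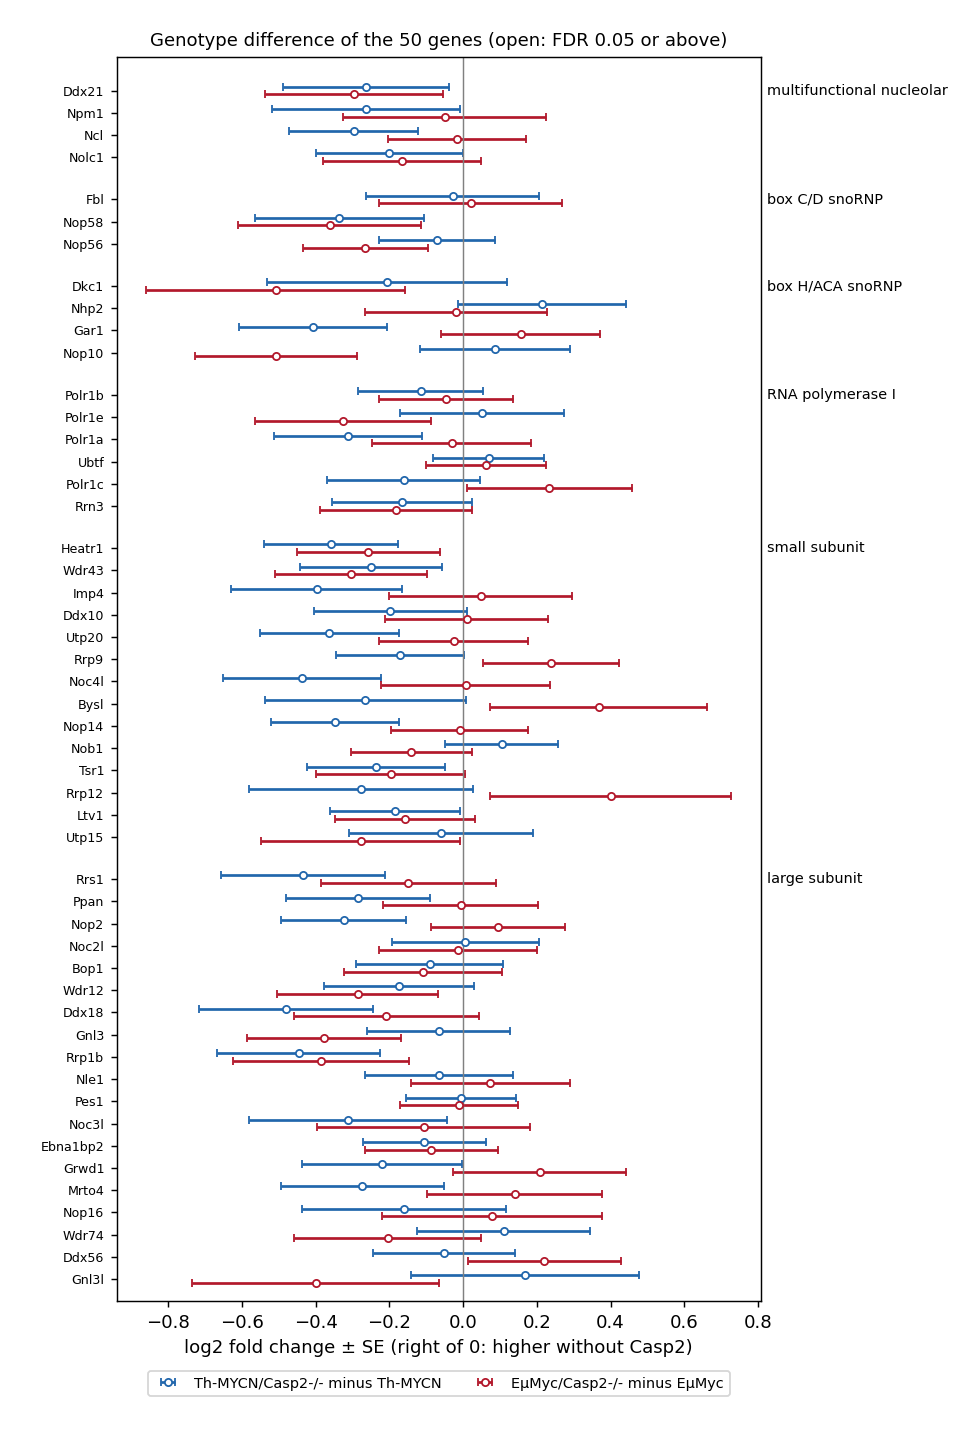
Log2 fold change of Casp2-/- over Casp2 wild type tumors ± SE (horizontal axis) for each of the 50 genes (vertical axis), in neuroblastoma (blue) and lymphoma (red), grouped by role. All points are open (adjusted p of 0.05 or above), and 42 blue and 34 red points lie left of 0.

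The effect of Casp2 loss was then compared between the tumor types. No gene passed the test of this interaction, beside 0.914% of all genes, and each of the 3 tests gave 1 gene with an unadjusted p under 0.05. That gene was Nop10 by both edgeR tests, with a difference of -0.59 ± 0.30 (adjusted p = 0.552), lymphoma minus neuroblastoma, and Gar1 by DESeq2, at 0.56 ± 0.29 in the likelihood ratio fit (adjusted p = 0.574). Of all 14880 genes, 1333 had an unadjusted p under 0.05 by the likelihood ratio test, 1127 by the quasi-likelihood test and 1332 by DESeq2. The median over the 50 genes was 0.06. It was 0.11 without EuMycC2ko215, and 0.06 without EuMycC2ko215 and MYCNC2ko180 together. The 95% interval was within 2-fold for 38 genes, though it may be too narrow. A difference of that size was not excluded for the other 12.

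Among the 92 other pathway genes, 2 were called lower without Casp2 in neuroblastoma, beside 0.665% of all genes, and none higher, beside 0.228%. These were Lyar, with a log2 fold change of -0.74 (adjusted p = 0.0334), and Rrp15, a large subunit factor, with -0.69 (adjusted p = 0.0319). The quasi-likelihood test did not call them, at adjusted p = 0.224 and 0.220, and DESeq2 called 2 lower. In lymphoma and in the interaction none of the 92 was called by the likelihood ratio test. The median in neuroblastoma was -0.13, with 65 of 92 below 0.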

How the data were processed

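RNA of 15 mouse tumors in 4 groups was measured by single-end, poly(A)-selected RNA-seq. The authors aligned reads with STAR to mm10 and deposited raw read counts per gene on either strand, the first strand and the second strand, of which they used the second, as was done here. Tool versions are not given in the sources used here. The low-count filter asked for more than 1 CPM in 3 tumors or more and passed 14880 genes. A single edgeR model with 4 group means and TMM scaling was fitted to all tumors (R 4.3.3, edgeR 4.0.16, limma 3.58.1), and likelihood ratio tests were adjusted over all genes by Benjamini-Hochberg. A gene was called at an adjusted p under 0.05. Every "adjusted p" in the text is from that test unless another is named, and ± after a log2 fold change is its standard error. CPM values use TMM library sizes, in which 4940464 to 17638029 second strand reads per tumor set the precision, and floors of 3 reads cover counting error only. All 3 tests (DESeq2 1.42.0) were checked on data simulated for the tumor type comparison with Casp2 and the genotype comparison in neuroblastoma. Only 200 genes were changed in each, and the groups otherwise shared the same mean. At an adjusted p under 0.05, 14.9% and 17.7% of calls by the likelihood ratio test were false. For DESeq2 these shares were 18.1% and 21.4%, and for the quasi-likelihood test 3.96% and 3.16%. Between the real tumor types 28.3% of genes were called higher and 33.9% lower, so the simulated shares may not hold there.

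The members and lists were chosen with earlier results of these data known. Named genes were 9 kept whatever their values, the 2 with the largest mean change per role, genes called against the majority, the 3 smallest p in each genotype comparison, and from the pathway list the 3 highest and 3 lowest by mean. Alternatives were the quasi-likelihood test, DESeq2, other scalings, no filter, other strand columns, only the groups compared, and leaving out each tumor. An offset for GC content (20 bins, with a value for 86.5% of genes) and leaving out 2 libraries together were chosen after seeing the data. No pair of tumors in a group agreed within sampling noise (chi-square per degree of freedom 17.0 to 81.6 over 21 pairs). Each tumor came from its own mouse, so p-values measure the spread between mice. A tumor that the study removed was not analysed here.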

Additional observations from a re-analysis of the deposited data

Results flagged for a closer look

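Of 75 sets of values in the 3 groups of 4 tumors (72 for the 24 named genes and 3 for the summed level), 6 held a tumor far from the rest of its group by Dixon's criterion, which chance alone flags in about 1 of 20. In Th-MYCN, MYCN175 was the tumor apart in 3 genes. Fbl was at 14.5 CPM there (next 19.1), Ppan at 99.4 CPM (next 121) and Nhp2 at 205 CPM (next 142). In EμMyc, Bop1 was at 375 CPM in EuMyc743b (next 246) and Ddx18 at 116 CPM in EuMyc829 (next 67). In Th-MYCN/Casp2-/-, Wdr43 was at 140.1 CPM in MYCNC2ko118 (next 108). Groups of 3 were not tested.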

How the results depend on the processing

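Over 25 other settings, the 96 calls of single genes between tumor types kept their direction and their side of the threshold in 2394 of 2400 values, with none reversed, and the 6 others were in Polr1c, Ddx56 and Wdr74, with the values given above. Leaving out each tumor gave 45 to 47 genes higher in lymphoma with Casp2 and 47 to 48 without it, with 1 lower in both, and medians of 1.17 to 1.31 and 1.33 to 1.45. No gene was called for Casp2 genotype or for the interaction without any 1 tumor. The median genotype difference was then -0.21 to -0.15 in neuroblastoma and -0.13 to 0.00032 in lymphoma, and the median interaction 0.019 to 0.17, the highest without EuMyc614, against 0.06 with all tumors. With the GC offset the medians were 1.34 and 1.45 between tumor types, -0.18 and -0.08 between genotypes and 0.09 for the interaction. No paired analysis was possible because replicate numbers only name tumors and pair none across groups. Depth (3 reads at most 0.586 CPM) limited none of the 50 genes. With groups of 3 or 4 tumors, 95% intervals reached past 2-fold for 3 genes in the lymphoma genotype comparison and 12 in the interaction. What widened them was not tested.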
